A study of Mus musculus with 51 samples.

Results

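*Olfr907*, *Olfr910*, *Olfr912* and *Olfr914* are odorant receptor (OR) genes of 1 cluster on mouse chromosome 9, and 4 of the 1117 OR genes counted in every library. They were chosen by name: *Olfr910* and *Olfr912* are among the receptors the study lists for 2-sec-butyl-4,5-dihydrothiazole (SBT), a volatile of male mouse urine, and the others carry neighbouring numbers in the same cluster. The choice rested on reads of the SBT and control mice used here, so the members' differences between SBT and control mice are given as a description, without a test. All 4 genes are accounted for below, and all 4 passed the filter of 10 reads in each SBT comparison. *Olfr907* passed it only with the reads of the SBT mice, since its controls there held 1 to 4 reads each.

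The libraries are pS6-IP-Seq of the olfactory mucosa, the tissue of the nose that holds the olfactory sensory neurons. Each of the 51 libraries came from 1 wild-type C57BL/6J mouse about 3 weeks old, exposed for 1 hr to 10 μL of odorant or of its diluent in littermate groups, and the mice fell into 17 groups of 3. SBT, a racemic mixture diluted in water, was given at 0.01%, 1% and 100%, the last of these undiluted. Mice given 1% and 100% SBT shared 3 diluent controls, while 0.01% SBT was another experiment with 3 controls of its own. The other 7 odor groups received (methylthio)methanethiol (MTMT, another male urine volatile, in ethanol) at 100 μM or 10 mM, 1% β-caryophyllene, 100% (E)-β-farnesene, 1% 2,5-dimethylpyrazine (2,5-DMP), 77% dehydro-exo-brevicomin (DHB) or 100 mM cyclopentadecanone (CPD, in ethanol). Those 7 groups were set against 5 further control groups, of which 1 was shared by (E)-β-farnesene, 2,5-DMP and 100 μM MTMT, which makes 21 control mice in 7 groups. The study describes (E)-β-farnesene and 2,5-DMP with water and MTMT with ethanol, so a single diluent cannot match all 3 odors that shared controls, and which diluent those controls received is not given in the sources used here. Whole mucosa was used, and the tables hold OR genes only, so markers of other cell types are not measured in them. Reads over OR genes numbered 27301 to 160001 per library, and the smallest total belonged to a control of the 1% and 100% SBT mice.

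Each olfactory sensory neuron expresses 1 OR gene, a G protein-coupled receptor that binds odorants in the nasal mucus. A neuron that fires phosphorylates its ribosomal protein S6, and antibodies to phosphorylated S6 (pS6) pull down the ribosomes of such cells with the mRNA on them. The transcript of a receptor whose neurons were active is therefore enriched among the precipitated reads, and the reads of an OR were expressed here as a share of all OR reads of the library. In such libraries of whole tissue, more neurons of a type and more precipitated RNA per neuron cannot be told apart.

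The 4 genes lie on the plus strand of chromosome 9 in GRCm38, in the order of their numbers. *Olfr907* (ENSMUSG00000094810) spans chr9:38495801-38499882, *Olfr910* (ENSMUSG00000060114) chr9:38537849-38540820, *Olfr912* (ENSMUSG00000111448) chr9:38580178-38586876 and *Olfr914* (ENSMUSG00000047050) chr9:38605102-38610978. Each coding sequence lies within 1 exon, with 933 bases in *Olfr907*, *Olfr910* and *Olfr912* and 951 bases in *Olfr914*. No annotated gene overlaps any of the 4 on either strand. *Olfr910* and *Olfr912* are near copies: 895 of 933 coding bases were identical (95.9%), against a median identity to *Olfr910* of 55.3% over the 1106 ORs with a complete annotated coding sequence. The other members stood at 80.1% (*Olfr914*) and 79.2% (*Olfr907*). The 10 ORs closest to *Olfr910* in coding sequence were all numbered between *Olfr904* and *Olfr921* in this stretch of chromosome 9. They include 7 that are no members: *Olfr913* (80.4%), *Olfr920* (80.2%), *Olfr921* (79.2%), *Olfr904*, *Olfr906*, *Olfr915* and *Olfr905*.

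The near identity matters for the counts, since a read that fits both genes must be divided between them. The longest run shared by *Olfr910* and *Olfr912* is 272 coding bases, from base 358 to base 629 of each coding sequence (chr9:38539254-38539525 in *Olfr910* and chr9:38581636-38581907 in *Olfr912*), and a 50-base read from within it cannot be assigned to either gene:
Both genes: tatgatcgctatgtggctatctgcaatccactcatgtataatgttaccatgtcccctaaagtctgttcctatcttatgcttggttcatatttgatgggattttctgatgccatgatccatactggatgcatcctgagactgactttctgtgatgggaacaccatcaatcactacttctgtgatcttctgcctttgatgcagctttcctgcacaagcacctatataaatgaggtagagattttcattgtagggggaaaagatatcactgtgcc
From the end of that run onwards the copies differ most. The windows below cover coding bases 616 to 795 of the 4 members and of *Olfr913* and *Olfr921*, the pair of neighbours with SBT values of their own, printed 5′ to 3′ on the plus strand with every base that differs from *Olfr910* in capitals:
Olfr910 chr9:38539512-38539691: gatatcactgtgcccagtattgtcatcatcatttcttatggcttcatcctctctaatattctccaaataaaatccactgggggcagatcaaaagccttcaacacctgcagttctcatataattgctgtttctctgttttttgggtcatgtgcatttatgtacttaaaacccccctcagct
Olfr912 chr9:38581894-38582073: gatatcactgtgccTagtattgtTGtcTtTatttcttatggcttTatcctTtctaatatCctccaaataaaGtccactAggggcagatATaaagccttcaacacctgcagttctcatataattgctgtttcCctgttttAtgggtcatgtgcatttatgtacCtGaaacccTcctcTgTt
Olfr914 chr9:38607082-38607261: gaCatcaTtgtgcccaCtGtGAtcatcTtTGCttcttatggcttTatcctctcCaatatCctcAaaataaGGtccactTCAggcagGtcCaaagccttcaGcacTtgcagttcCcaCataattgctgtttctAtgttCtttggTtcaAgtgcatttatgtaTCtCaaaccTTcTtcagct
Olfr913 chr9:38594838-38595017: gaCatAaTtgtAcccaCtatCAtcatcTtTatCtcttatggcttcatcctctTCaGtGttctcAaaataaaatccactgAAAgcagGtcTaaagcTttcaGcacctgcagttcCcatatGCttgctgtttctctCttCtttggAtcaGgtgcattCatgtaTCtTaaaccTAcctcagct
Olfr907 chr9:38499286-38499465: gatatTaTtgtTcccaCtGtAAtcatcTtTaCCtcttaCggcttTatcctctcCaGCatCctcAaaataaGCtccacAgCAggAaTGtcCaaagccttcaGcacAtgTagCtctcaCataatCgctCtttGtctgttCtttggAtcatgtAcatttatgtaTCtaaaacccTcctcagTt
Olfr921 chr9:38775872-38776051: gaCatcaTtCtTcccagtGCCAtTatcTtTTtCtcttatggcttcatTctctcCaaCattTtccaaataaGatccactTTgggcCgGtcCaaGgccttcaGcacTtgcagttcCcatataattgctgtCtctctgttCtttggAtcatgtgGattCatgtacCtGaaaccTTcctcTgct
In this window *Olfr912* differed from *Olfr910* at 19 of 180 positions, and *Olfr914*, *Olfr913*, *Olfr921* and *Olfr907* at 35, 35, 37 and 42. Over the whole exon sequence, 345 of the 1947 stretches of 50 bases in *Olfr910* (17.7%) also occurred in *Olfr912*, and these were 6.08% of the stretches of *Olfr912*. The division of such reads between *Olfr910* and *Olfr912* is therefore an estimate. *Olfr907* and *Olfr914* shared no 50-base stretch with another member, and *Olfr913* shared none with any gene.

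Without odor all 4 receptors were minor components of the OR reads. Over the 21 control mice the share of OR reads was 0.0400 to 0.115% for *Olfr910* (median 0.0641%), 0.0318 to 0.117% for *Olfr912* (median 0.0601%), 0.00454 to 0.0474% for *Olfr914* (median 0.0188%) and 0 to 0.0151% for *Olfr907* (median 0.00494%). Levels can be compared between genes only per length of exon, and on that scale the control medians were 321.2 reads per kilobase of exon per 1000000 OR reads for *Olfr910*, 105.0 for *Olfr912*, 37.9 for *Olfr914* and 25.8 for *Olfr907*. The exon lengths used were 1996, 5726, 4948 and 1919 bases in that order. They came from the GENCODE annotation M21, not from the authors' M25, so the levels depend on that annotation. The levels rest on few reads, with 15 to 88 reads of *Olfr910*, 18 to 88 of *Olfr912*, 2 to 37 of *Olfr914* and 0 to 10 of *Olfr907* per control library. Of the ORs tested, 2.57% differed among the 7 control groups (edgeR quasi-likelihood F test, Benjamini-Hochberg adjusted), and no member was among them, with adjusted p of 0.909 for *Olfr910*, 0.914 for *Olfr912*, 0.370 for *Olfr914* and 0.898 for *Olfr907*. The unadjusted p of *Olfr914* in the same edgeR test was 0.0413, and its control means ran from 0.0108% (controls of β-caryophyllene) to 0.0351% (controls of CPD), with 0.0139% in the controls of 1% and 100% SBT and 0.0302% in those of 0.01% SBT.

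*Olfr910* was higher in all 9 SBT mice than in all 42 other mice, a description for which the share over all ORs was not counted. After 0.01% SBT its shares were 0.582, 0.314 and 0.514% of OR reads, against 0.0641, 0.0756 and 0.0692% in the controls. After 1% SBT they were 0.618, 0.857 and 0.345%, and after 100% SBT 0.173, 0.250 and 0.200%, against 0.0931, 0.115 and 0.0549% in the 3 controls that both doses shared. No SBT mouse overlapped its controls at any dose. The ratios of the mean shares were 6.75 at 0.01%, 6.91 at 1% and 2.36 at 100%, and the fitted log2 fold changes were 2.79 (SE 0.31), 2.88 (SE 0.45) and 1.60 (SE 0.37). The reads behind the lowest of these shares were 313 at 0.01%, 220 at 1% and 141 at 100%.

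*Olfr912* followed the same pattern. Its shares after 0.01% SBT were 0.410, 0.257 and 0.603%, against 0.0532, 0.0318 and 0.0820% in the controls. After 1% SBT they were 0.485, 0.591 and 0.279%, and after 100% SBT 0.119, 0.123 and 0.175%, against 0.0522, 0.117 and 0.0659% in the shared controls. Every SBT mouse was above its controls, but at 100% the margin was thin: the lowest SBT mouse stood at 1.01 times the highest control, compared with 3.13 at 0.01% and 2.38 at 1%. The fitted log2 fold changes of *Olfr912* were 2.97 (SE 0.40), 2.63 (SE 0.44) and 1.19 (SE 0.39). Shares rest on library totals, on which the median log2 fold change of all ORs at 100% SBT was -0.47, against -0.07 in the fits. For *Olfr912* too, all 9 SBT mice were above all 42 other mice, with no share over all ORs counted.

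*Olfr914* departed from that pattern at the lowest dose. After 0.01% SBT its shares were 0.0381, 0.0150 and 0.0377%, overlapping its controls at 0.0182, 0.0249 and 0.0474%, and the log2 fold change was 0.08 (SE 0.47), with values of either sign when single libraries were left out (-0.21 to 0.56). After 1% SBT they were 0.224, 0.247 and 0.113%, and after 100% SBT 0.0417, 0.0909 and 0.0417%, against 0.00454, 0.0262 and 0.0110% in the shared controls. Both groups lay above those controls, with log2 fold changes of 3.84 (SE 0.60) and 2.39 (SE 0.64). The controls held only 2, 15 and 3 reads of *Olfr914*, and 2 of 44027 OR reads leaves a 95% Wilson interval on the share, for counting error only, of 0.00125 to 0.0166%. Leaving out the control with 15 reads raised the log2 fold changes to 4.83 and 3.36. Set against all 42 other mice, 4 SBT mice were higher, the 3 at 1% and 1 at 100%, again with no share over all ORs counted. The difference in log2 fold change between the doses 0.01% and 1% was not tested, since they belonged to separate experiments.

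*Olfr907* was close to the limit of counting. Its reads after 0.01% SBT were 39, 9 and 14, or 0.0244, 0.00903 and 0.0147% of OR reads, against 4, 2 and 1 reads in the controls. After 1% SBT it had 25, 12 and 8 reads (0.0603, 0.0181 and 0.0126%), and after 100% SBT 4, 12 and 6 (0.00490, 0.0115 and 0.0104%), against 1, 2 and 4 reads in the shared controls (0.00227, 0.00350 and 0.0147%). Only the 0.01% mice were all above their controls, and at 1% and 100% the groups overlapped. The controls of 0.01% SBT had the lowest mean of the 17 groups for *Olfr907*, at 0.00206%. Set against all 21 control mice, which reached 0.0151%, only 3 of the 9 SBT mice were higher. They were the mouse with 0.0244% at 0.01% and those with 0.0603 and 0.0181% at 1%, again with no share over all ORs counted. The log2 fold changes were 2.87 (SE 0.79), 2.44 (SE 1.08) and 0.91 (SE 1.12), and without the first mouse at 1% the second fell to 1.32. *Olfr907* had no reads in 2 libraries: 0 of 109340 OR reads after 100 μM MTMT, which allows a share of up to 0.00274%, and 0 of 51613 in a control of 10 mM MTMT, which allows up to 0.00581%.

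**Figure D1:**
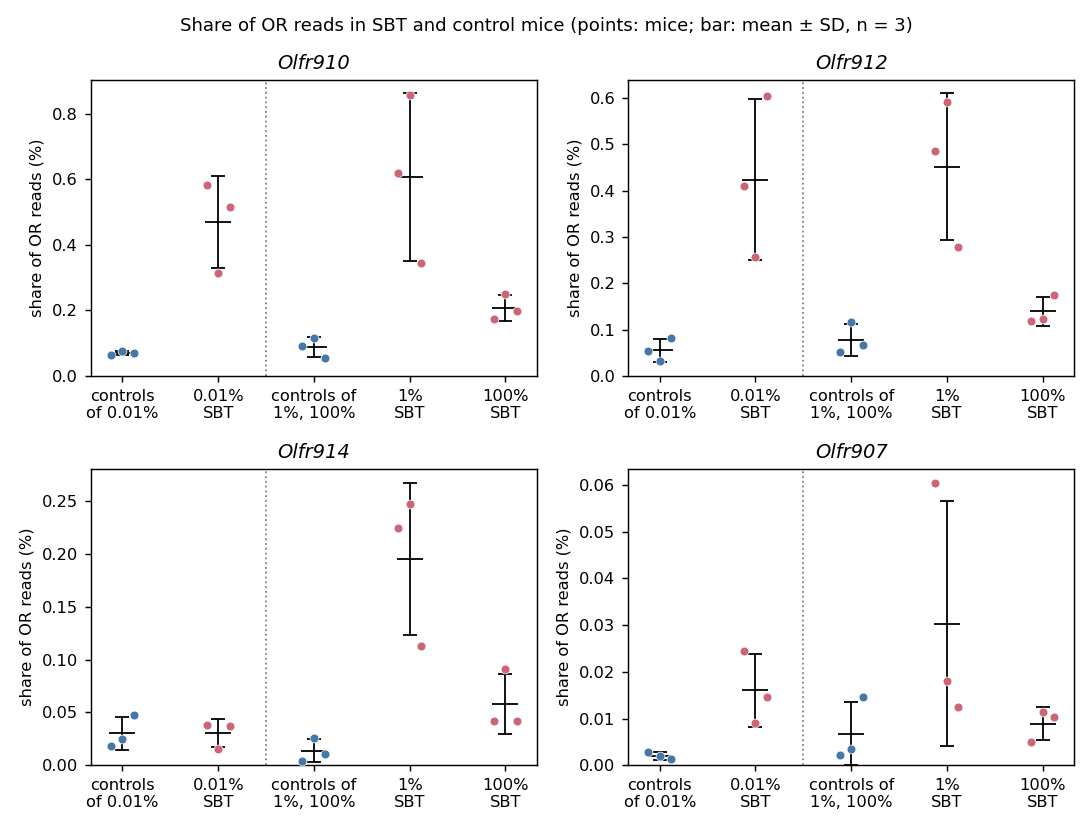
Share of OR reads (percent, linear axes from 0) of the 4 receptors in each mouse of the SBT experiments. Points are mice, bars are group means and error bars are SD (n = 3 mice); *Olfr910* and *Olfr912* are above the controls in all 9 SBT mice, *Olfr914* at 1% and 100%, and *Olfr907* without overlap only at 0.01%.

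At each dose, 3 of the 4 receptors lay above every control: *Olfr907*, *Olfr910* and *Olfr912* at 0.01%, and *Olfr910*, *Olfr912* and *Olfr914* at 1% and at 100%. Over all ORs with at least 10 reads, 3.08%, 3.74% and 13.3% did so at 0.01%, 1% and 100%. The members were chosen with these contrasts known, and *Olfr907* passed the read filter only through the SBT mice, so the counts are a description only. The mean share of *Olfr910* was 0.607 ± 0.256% at 1%, 0.470 ± 0.140% at 0.01% and 0.207 ± 0.0391% at 100% (SD, n = 3), and that of *Olfr912* 0.452 ± 0.158%, 0.423 ± 0.174% and 0.139 ± 0.0315%. For both genes the values at 1% and 0.01% overlapped, those at 100% lay below both, and all other groups lay below 100%. For *Olfr914* the order was 1% (0.195 ± 0.0718%), 100% (0.0581 ± 0.0284%, SD, n = 3 each) and then the CPD controls and 0.01% SBT, which overlapped. Neighbours in the order of *Olfr907* all overlapped.

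The comparison of undiluted with 1% SBT asks whether the receptors were higher or lower at the stronger stimulus. All 4 were lower in every 100% mouse than in every 1% mouse. The highest share at 100% and the lowest at 1% were 0.250 and 0.345% for *Olfr910*, 0.175 and 0.279% for *Olfr912*, 0.0909 and 0.113% for *Olfr914*, and 0.0115 and 0.0126% for *Olfr907*. Over all ORs with at least 10 reads, 14.5% showed the same arrangement. Fitted over all ORs with edgeR, the log2 differences between 100% and 1% were -1.24 (SE 0.38) for *Olfr910*, -1.41 (SE 0.38) for *Olfr912*, -1.43 (SE 0.50) for *Olfr914* and -1.49 (SE 0.94) for *Olfr907*. Mice of both doses entered the choice of the members, so these differences are a description and carry no test. Of all ORs, 7.53% passed the edgeR quasi-likelihood threshold (Benjamini-Hochberg adjusted p under 0.05) in either direction, 76 higher and 4 lower at 100%.

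Over the alternatives run, these differences ranged from -1.59 to -1.02 for *Olfr910*, -1.73 to -1.27 for *Olfr912*, -1.95 to -1.22 for *Olfr914* and -1.94 to -0.40 for *Olfr907*. The scaling by trimmed means placed the median log2 difference of all ORs at -0.0081. With library totals in its place that median moved by -0.30, and the members' differences were -1.55 for *Olfr910*, -1.70 for *Olfr912* and -1.73 for *Olfr914*.

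The 7 other odors were not used to choose the members, and their values could be tested. None of the 28 tests, 4 receptors over 7 odors, passed the edgeR quasi-likelihood threshold after Benjamini-Hochberg adjustment over all ORs, and 1 had an unadjusted p under 0.05. For *Olfr910* and *Olfr912* the log2 fold changes ran from -0.52 to 0.16 over 14 tests (SE 0.28 to 0.66), with a lowest adjusted p of 0.943 by edgeR. Those of *Olfr907* ran from -1.11 to 0.42. The lowest *Olfr910* value, -0.52 after β-caryophyllene, came from reads of 36, 4 and 70 against 41, 41 and 84, and it was 0.02 without the mouse with 4 reads. Among the 21 mice given these odors, none exceeded the highest of the 21 control mice for any of the 4 genes. That highest control rested on 8 reads for *Olfr907* and 37 for *Olfr914*. The share of all ORs with this arrangement was not counted.

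*Olfr914* gave the 1 unadjusted p under 0.05. After (E)-β-farnesene, a sesquiterpene of male mouse preputial glands, its shares were 0.0228, 0.0395 and 0.0285%, against 0.00800, 0.0120 and 0.0146% in the controls. After 2,5-DMP, a pyrazine of female mouse urine, they were 0.0288, 0.0166 and 0.0208% against the same controls. Both groups lay above these controls without overlap, which 5.32% and 6.26% of ORs did after (E)-β-farnesene and 2,5-DMP. The log2 fold change was 1.39 after (E)-β-farnesene (SE 0.43, adjusted p = 0.173 by edgeR) and 0.86 after 2,5-DMP (SE 0.46, adjusted p = 0.991 by edgeR). After CPD, shares of 0.0214, 0.0240 and 0.0313% lay below the controls at 0.0340, 0.0364 and 0.0348%, as those of 5.43% of ORs did, with a log2 fold change of -0.32. Each of these 3 contrasts reached the exact two-sided permutation p of 0.1, the smallest that 3 mice against 3 allow, or 0.7 after adjustment over the 28. The shares after all 3 odors lay within the range of the 21 control mice. The share of ORs higher at the edgeR threshold was 1.77% after (E)-β-farnesene, 0.841% after 2,5-DMP, 0.564% after DHB and 0.281% after 100 μM MTMT, and 0 after 10 mM MTMT, β-caryophyllene and CPD.

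**Figure D2:**
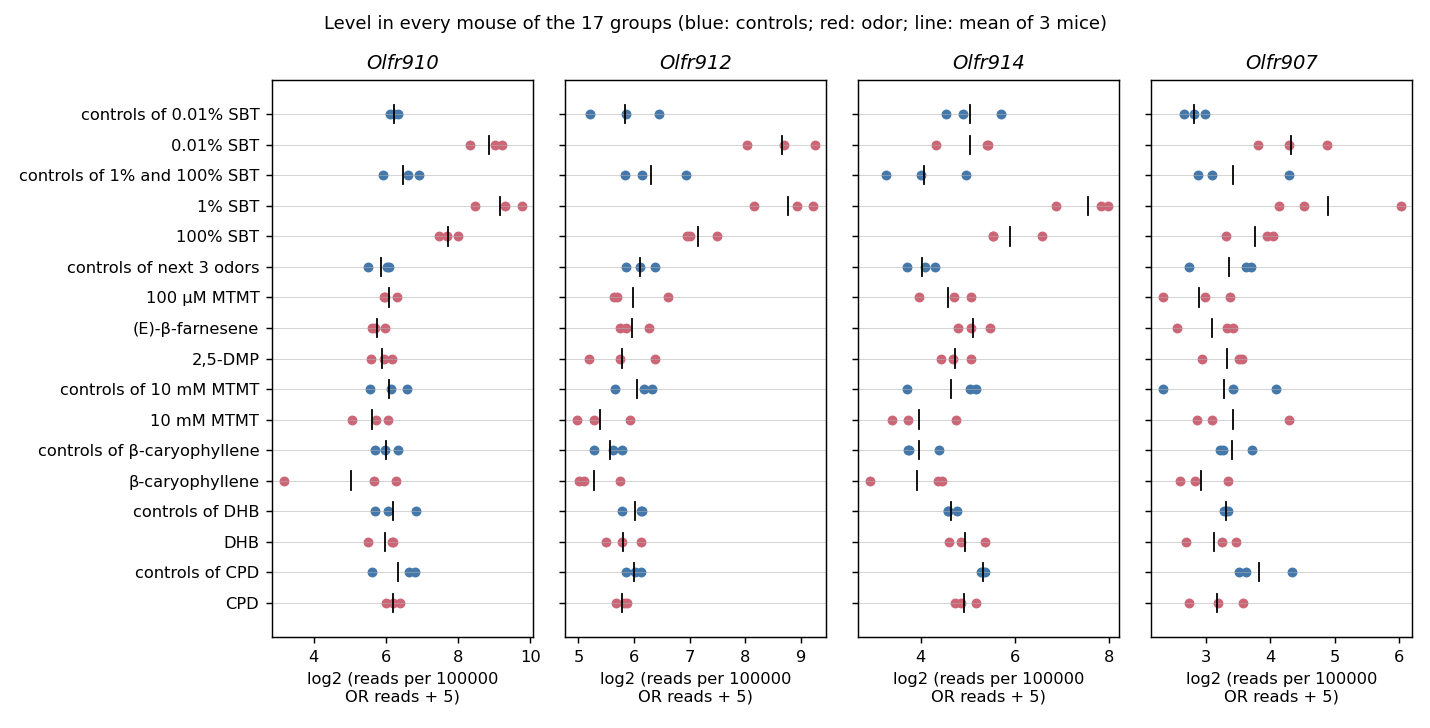
Level of the 4 receptors (horizontal, log2 of reads per 100000 OR reads plus 5) in every mouse of the 17 groups, with control groups in blue, odor groups in red and a line at the mean of 3 mice. The 9 SBT mice of *Olfr910* and *Olfr912* lie to the right of all 42 other mice, while no mouse after another odor exceeds the highest control for any of the 4 genes. Neither arrangement was counted over all ORs.

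The balance of the near copies *Olfr910* and *Olfr912* rests on the SBT and control reads that entered their choice. It is therefore described without a test. The log2 ratio of *Olfr910* to *Olfr912* reads averaged 0.39 ± 0.33 in the 9 SBT mice (range -0.23 to 1.01) and 0.30 ± 0.61 in the 6 controls of the SBT experiments (SD). The difference of 0.09 was smaller than either SD. Within equal replicate numbers, taken as a replicate block, the difference was 0.04. Leaving out a library gave differences of -0.02 to 0.27. Over all 21 controls the log2 ratio averaged 0.20 ± 0.55, and over the 21 mice given other odors 0.06 ± 0.71 (SD). *Olfr910* had more reads than *Olfr912* in 34 of 51 libraries. Reads from the shared run printed above were divided between the genes by estimate, and their part in the ratio was not tested.

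**Figure D3:**
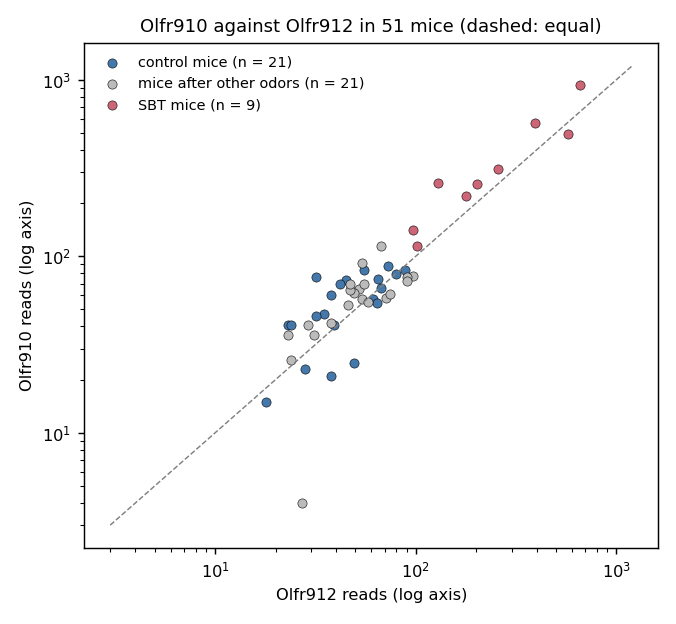
Reads of *Olfr912* (horizontal) against *Olfr910* (vertical) in the 51 libraries, both on log axes, with control mice in blue, mice after other odors in grey, SBT mice in red and a dashed line at equal reads. The SBT mice lie to the upper right along the same line, with log2 ratios from -0.23 to 1.01, and the lowest point is the β-caryophyllene mouse with 4 *Olfr910* reads.

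The rest of the cluster was counted over the ORs with numbers from *Olfr890* to *Olfr930*, of which 25 in the tables are no members. At 0.01% SBT 1 of 22 tested passed as higher (0.466% of all ORs did), at 1% 1 of 21 (0.863%) and at 100% 3 of 20 (10.7%), and none passed as lower (edgeR quasi-likelihood, Benjamini-Hochberg adjusted). Their median log2 fold changes of -0.17, 0.08 and 0.35 stood beside medians of -0.00061, 0.02 and -0.07 over all ORs tested. No gene of this range passed after any of the 7 other odors. Among the 7 non-member relatives of *Olfr910*, 1, 1 and 2 passed at 0.01%, 1% and 100%, with medians of -0.16, 1.16 and 1.69. The median at 1% was the value of *Olfr915* (SE 1.62), which had 2, 5 and 3 reads against 0, 1 and 2 in the controls.

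*Olfr921* (chr9:38773068-38779021), 232.2 kb beyond *Olfr910*, was the neighbour that passed at all 3 doses. Its shares after 0.01% SBT were 0.207, 0.146 and 0.190%, against 0.0510, 0.0527 and 0.0512%. After 1% they were 0.205, 0.289 and 0.436% and after 100% 0.183, 0.170 and 0.153%, against 0.0636, 0.0560 and 0.0952%. Every SBT mouse was above its controls, as for 3.08%, 3.74% and 13.3% of ORs at 0.01%, 1% and 100%. The log2 fold changes of *Olfr921* were 1.84 (SE 0.29, adjusted p = 0.00259 by edgeR), 2.26 (SE 0.42, adjusted p = 0.0183) and 1.66 (SE 0.36, adjusted p = 0.00664). At 1% the call was lost without control replicate 1 or 2 or SBT replicate 1 or 3, with edgeR adjusted p of 0.0587 to 0.161. Between 100% and 1% it moved by -0.58 (adjusted p = 0.490 by edgeR).

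*Olfr913* (ENSMUSG00000059189, chr9:38592759-38596283), which lies between *Olfr912* and *Olfr914*, was higher at 100% than at 1%. At 0.01% SBT it had 75, 24 and 40 reads against 33, 31 and 72, a log2 fold change of -0.31 (SE 0.47, adjusted p = 0.999 by edgeR). After 1% its shares were 0.0145, 0.0558 and 0.0581%, against 0.0727, 0.0350 and 0.0586% (log2 fold change -0.26, SE 0.60, adjusted p = 0.994 by edgeR). After 100% they were 0.125, 0.182 and 0.0956%, above all their controls, as those of 13.3% of ORs were. The log2 fold change was 1.69 (SE 0.43, adjusted p = 0.0180 by edgeR). The contrast of 100% with 1% was 1.95 (SE 0.50, adjusted p = 0.0183 by edgeR), opposite in sign to that of *Olfr912*. Both *Olfr913* calls were lost with library totals in place of trimmed means, at edgeR adjusted p of 0.0609 and 0.0668. That for 100% SBT was also lost when any of 4 libraries was left out, and that for the contrast when any of 3 was.

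*Olfr930* and *Olfr920* stood at or near the threshold at 100% SBT. *Olfr930* had shares of 0.0404, 0.0794 and 0.0573% against 0.00681, 0.0367 and 0.0110%, and its log2 fold change of 2.00 (SE 0.61, adjusted p = 0.04998 by edgeR) passed in 4 of 10 alternatives. *Olfr920*, with 0.124, 0.152 and 0.104% against 0, 0.0507 and 0.0659%, did not pass (2.16, SE 0.71, adjusted p = 0.0716 by edgeR). *Olfr906* and *Olfr915*, on the outer sides of *Olfr907* and *Olfr914*, did not pass at any dose and had at most 33 and 6 reads in any library of the SBT experiments. *Olfr908*, next to *Olfr907*, had 1 read over all 15 of them and was not tested.

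**Figure D4:**
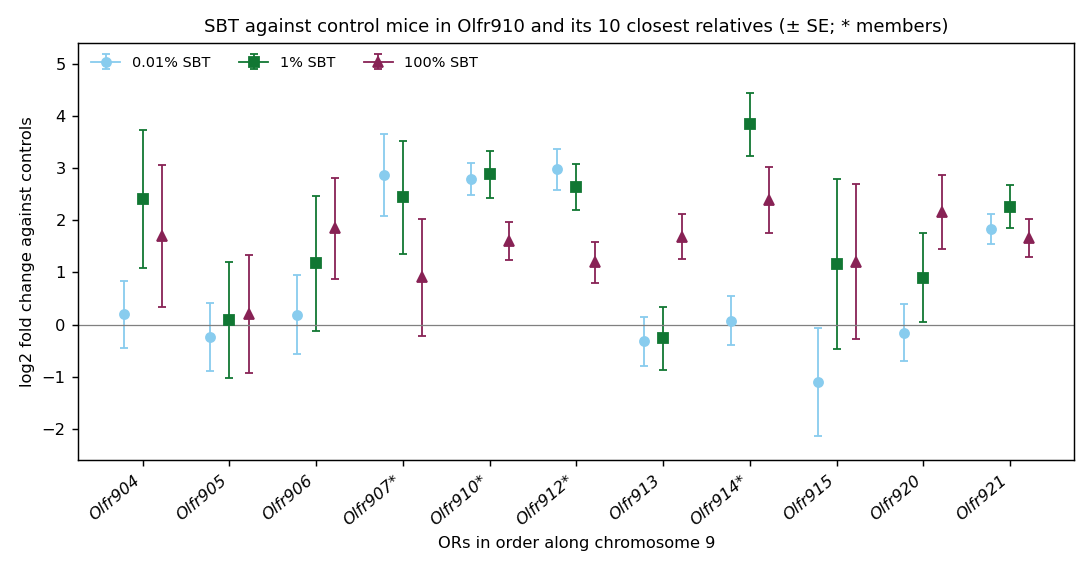
Log2 fold change of SBT against diluent controls (vertical, ± SE) for *Olfr910* and its 10 closest relatives in coding sequence, in order along chromosome 9, with 1 symbol per dose and members marked by asterisks. *Olfr910*, *Olfr912* and *Olfr921* lie between 1.19 and 2.97 at all 3 doses, *Olfr914* is at 0.08 at 0.01% SBT, and *Olfr913* is above 0 only at 100%.

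Over the 30 odor libraries, the log2 share minus the mean of its own controls gave a profile for each of 939 ORs with at least 10 reads a library on average. The profile most like that of *Olfr910* was that of *Olfr912* (Pearson r = 0.92), followed by *Olfr60* (0.77), *Olfr921* (0.76), *Olfr196* (0.74) and *Olfr1085* (0.73). For *Olfr912* the order was *Olfr910*, *Olfr921* (0.85), *Olfr196* (0.80), *Olfr1085* (0.71) and *Olfr152* (0.70). *Olfr914* came 26th for *Olfr910* (0.55) and 23rd for *Olfr912* (0.51). *Olfr907* averaged fewer than 10 reads a library and was not ranked. Some libraries share controls. Of the 30, 9 are SBT mice, whose reads entered the choice of the members, so the coefficients are given as a description. Reads that fit both *Olfr910* and *Olfr912* were divided between them by estimate, and their part in the coefficient of 0.92 was not tested. Of each set of 5, 4 stayed with all 51 libraries and no centring, and 4 with rank correlation.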

How the data were processed

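pS6-IP-Seq reads of 51 libraries had been processed by the authors, per their methods, with STAR on GRCm38.p6 and RSEM, from single reads of 50 or 75 bases. The deposited values are expected counts (RSEM estimates, held as whole numbers, not normalized) for 1117 OR genes, so a library's total is its total over ORs. The fold changes and p-values of the authors' own comparisons were not used. In 1 table, 6 per-sample columns matched no sample in the labels and were left out. Groups and replicate numbers came from the labels. Members, lists and tests were chosen with earlier results of these data known.

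Counts were tested with edgeR 4.0.16 in R 4.3.3 (quasi-likelihood, TMM factors over ORs, at least 10 reads over the libraries compared, Benjamini-Hochberg over all ORs tested, threshold 0.05). SE is the log2 fold change divided by the square root of F. DESeq2 1.42.0, library totals, no filter, a replicate block and leaving out each library were alternatives. Exact permutation tests used log2 shares per 100000 OR reads plus 5. Log2 read ratios were taken with 0.5 added to each count. Scripts were tested on simulated data. Wilson intervals (scipy 1.17.1) and the limit of 3 reads behind a 0 cover counting error only.

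Tests of the members between 100% and 1% SBT and of the ratio of *Olfr910* to *Olfr912* were planned. Mice given SBT entered the choice of the members, so no p is given for either.

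Named genes were the 4 members, adjacent ORs, ORs numbered 890 to 930 past the threshold, the 10 closest relatives of *Olfr910* and the 5 most alike in pattern. The plan ranked relatives by protein, and coding nucleotides were used instead. Positions and sequences came from the GRCm38 genome and GENCODE annotation M21, not from the authors' M25. Deviations from group means correlated above 0.1 between equal replicate numbers, for all 3 numbers, in 4 of 10 comparisons. These were 1% SBT, 100% SBT, β-caryophyllene and CPD. Over all 10 comparisons every one of these correlations was positive, from 0.043 to 0.294. The main fits and the permutation tests did not pair replicates in any comparison, and the replicate block was run as an alternative only. Replicates differed by more than sampling noise in every group, and none was merged.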

Additional observations from a re-analysis of the deposited data

Results flagged for a closer look

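*Olfr913*, which lies between *Olfr912* and *Olfr914*, differed between the groups given 100% and 1% SBT in the edgeR contrast of the doses, with a log2 difference of 1.95. *Olfr913* is no member, and it was named because it passed the threshold and lies beside members.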

How the results depend on the processing

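All 4 members were lower at 100% than at 1% SBT in every alternative, the replicate block included. On shares of library totals the doses did not overlap for any of them, an arrangement that 14.5% of all ORs showed. Overlap under other scalings was not examined. With the replicate block the ratio of *Olfr910* to *Olfr912* differed by 0.04. The ratio of *Olfr910* to *Olfr912* reversed to -0.021 without control replicate 3 of 0.01% SBT and -0.024 without that of 1% and 100% SBT (leave-one-out range -0.024 to 0.27). Leaving out a library gave log2 fold changes of 2.44 to 3.23 for *Olfr907* at 0.01% SBT, 1.32 to 3.46 at 1% and 0.53 to 1.91 at 100%, and for *Olfr914* -0.21 to 0.56 at 0.01%, where the sign turned, 3.42 to 4.83 at 1% and 1.92 to 3.36 at 100%. Other reversals were *Olfr910* after β-caryophyllene at 0.021 without its replicate 2 (-1.20 to 0.021), and *Olfr913* at 0.52 after 0.01% SBT without control replicate 3 (-0.67 to 0.52), and after 1% SBT at 0.017 without control replicate 1 and 0.10 without SBT replicate 1 (-0.57 to 0.10). No member passed after the 7 other odors or over the control groups in any alternative. ORs called rose from 3 to 5 (library totals, DESeq2, no filter) or 6 (replicate block) for 100 μM MTMT, from 0 to 15 for 10 mM MTMT, 0 to 1 for CPD and 28 to 60 over the control groups (all DESeq2), and from 9 to 17 for 2,5-DMP (replicate block). The causes were not tested.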
